A study of Mus musculus with 8 samples.

Results

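Muc2, Tff3, Agr2, Fcgbp, Spink4, Zg16, Reg3b, Reg3g and Pigr are genes of the intestinal mucus layer and of the antimicrobial and antibody defence of the gut lining. All probe sets (groups of short probes read as 1 value) annotated to 1 gene only, that gene being among these 9, were taken from the deposited table, which gave 14 probe sets of 45101 and 9 genes of 18194. They were measured in myeloid cells that were CD11b+Gr-1+, the surface phenotype of granulocytes and some monocytes, from C57BL/6J mice that carried an HDC-EGFP reporter, in which EGFP marks cells that use the gene of the histamine-making enzyme histidine decarboxylase. The wild-type bone marrow and HDC-EGFP/HDC-KO bone marrow pools came from 3 mice each, aged 3 to 4 months, and held cells described as HDC-expressing. The wild-type and HDC-EGFP/HDC-KO tumor pools came from 5 mice each, aged 7 months, whose colon tumors were raised with azoxymethane, a carcinogen, and 10 days of dextran sodium sulfate, an irritant that causes colitis, and were taken 22 to 24 weeks later. The series text calls the tumor donors WT and HDC-KO without the reporter, while the sample labels give the reporter for all 4 groups. Tumor cells were pooled before RNA extraction, and no EGFP gate is named for them. Each group was read on 2 arrays that the labels call technical replicates, so each SD, SE and p-value below measures the spread between arrays of 1 RNA pool and not the spread between mice.

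Goblet cells are the mucus-secreting cells of the gut lining. They fill their granules with the gel-forming mucin MUC2, and release with it trefoil peptides and further granule proteins that shape the gel and keep bacteria at a distance from the epithelium. Neighbouring epithelial cells secrete REG3 lectins, which bind bacterial cell walls, and carry immunoglobulin A from the tissue to the lumen with the polymeric immunoglobulin receptor, PIGR. None of these products is known as a defining product of granulocytes.

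The promoters of 6 of the 9 genes (Muc2, Agr2, Fcgbp, Reg3b, Reg3g and Pigr) were matched in RefSeq sequence of the GRCm38.p6 build, as 250 bases before and 50 after the start site. Those of the mucin Muc2 and of the lectin genes Reg3b and Reg3g, which lie 92.8 kb apart on chromosome 6, are shown. The lectin genes were chosen since they gave the largest and the smallest difference of the 9 genes between the tumor pools. Capitals mark matches, on either strand, to TATAAA, a core promoter motif, to TTTATG, a motif of the intestinal factor CDX2, and to TTCNNNGAA, a motif of STAT factors.
Muc2, chr7:141690090-141690389, plus strand: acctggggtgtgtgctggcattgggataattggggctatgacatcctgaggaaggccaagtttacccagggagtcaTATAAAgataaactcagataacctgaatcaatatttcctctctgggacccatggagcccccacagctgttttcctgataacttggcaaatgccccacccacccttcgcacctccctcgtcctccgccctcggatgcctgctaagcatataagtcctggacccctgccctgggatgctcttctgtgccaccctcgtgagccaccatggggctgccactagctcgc
Reg3b, chr6:78370635-78370934, plus strand: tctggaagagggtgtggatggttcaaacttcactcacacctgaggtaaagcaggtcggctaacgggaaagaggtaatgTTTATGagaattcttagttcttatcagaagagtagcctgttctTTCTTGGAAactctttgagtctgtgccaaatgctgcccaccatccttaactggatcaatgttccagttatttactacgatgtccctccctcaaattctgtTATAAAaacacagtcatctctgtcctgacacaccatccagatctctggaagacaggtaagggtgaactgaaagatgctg
Reg3g, chr6:78468825-78469124, minus strand: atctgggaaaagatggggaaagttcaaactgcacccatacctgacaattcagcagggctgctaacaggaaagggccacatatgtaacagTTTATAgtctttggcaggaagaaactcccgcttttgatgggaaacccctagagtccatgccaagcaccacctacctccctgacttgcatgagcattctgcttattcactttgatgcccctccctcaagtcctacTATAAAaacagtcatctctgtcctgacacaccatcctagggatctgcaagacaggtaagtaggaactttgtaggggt
The Reg3b and Reg3g windows were identical at 210 bases, 68.6% of their alignment, against 50.1% for Reg3b and Muc2. In both, TATAAA began shortly before the start site, at base -29 in Reg3b and at base -27 in Reg3g. TTTATG and TTCNNNGAA were found in the Reg3b window and not in that of Reg3g. Of the windows not shown, that of Agr2 held TTTATG, that of Pigr held TTCNNNGAA, and that of Fcgbp held none of the motifs. Among 32851 promoter windows, 13.6% held TATAAA, 11.9% TTTATG and 8.30% TTCNNNGAA, so a match in a single window is common, and no factor was measured at these sites. None of the matches in the shown windows overlapped another.

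The targeted gene and the labelled cell type were examined first. Hdc lay at 13.14 and 13.21 (log2 expression) on the wild-type marrow arrays, at 9.79 and 9.87 on the HDC-KO marrow arrays, at 13.25 and 13.23 on the wild-type tumor arrays, and at 13.02 and 13.03 on the arrays labelled HDC-KO tumor. Its level in the pool labelled HDC-KO tumor thus went against that label, and each direction drawn from that pool below rests on the label alone. Itgam, which encodes CD11b, lay at 11.21 or above on all 8 arrays, and a probe set of Ly6g, which encodes the Gr-1 antigen Ly-6G, was not analysed here. On each array 30.3% to 31.8% of probe sets reached log2 5, the level under which a value is treated here as background.

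In bone marrow, none of the 9 genes was above background. All 14 probe sets lay between 2.02 and 4.00 on the 4 marrow arrays. Of the 8 genes tested, 0 passed between the HDC-KO and wild-type marrow pools (limma, a change of 2-fold or more with a Benjamini-Hochberg adjusted p under 0.05), while 2 had an unadjusted p under 0.05. Both, Tff3 and Pigr, also had a limma adjusted p under 0.05, at 0.018 and 0.047, and missed the fold threshold. Over all 8174 genes tested 3.82% passed in either direction. The differences ran from -0.37 for Pigr to 0.56 for Tff3, a median of 0.10 on the log2 scale, and no fold is given because both pools lay under log2 5.

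In tumor, 7 of the 9 genes were above background in both pools, Fcgbp in the pool labelled HDC-KO alone and Reg3g in neither. All 14 probe sets were higher on both arrays labelled HDC-KO tumor than on both wild-type tumor arrays, and 8 of the 9 genes passed the test as higher. Over all genes tested 15.5% passed as higher and 10.5% as lower. Reg3g was the exception, since it reached log2 5 on no array and was not tested. Each of the 8 tested genes reached the level needed for testing through tumor arrays alone, and Fcgbp through the arrays labelled HDC-KO tumor alone, so these counts describe the genes and are not support for a difference between tissues or, for Fcgbp, between the tumor pools. The median difference of the 8 genes was 3.18 on the log2 scale, or 2.83 with pool means raised to log2 5, against 0.03 over all genes tested. Because the RNA came from sorted bulk cells, more cells that express these genes and more RNA per such cell cannot be told apart.

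**Figure D1:**
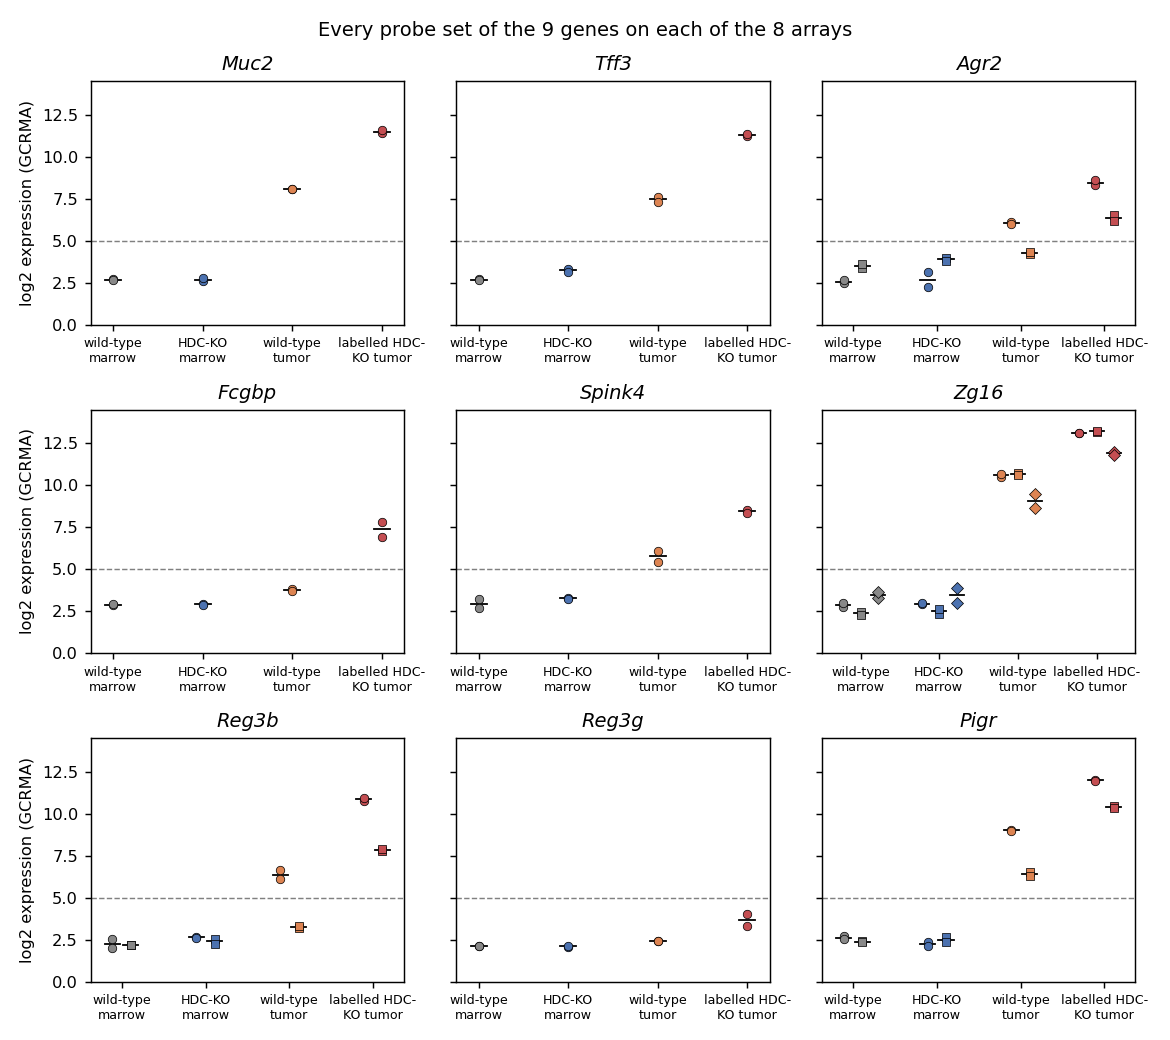
Log2 expression (vertical axis) of each probe set of the 9 genes on the 2 arrays of each pool (horizontal axis). Points are arrays, marker shapes are probe sets of a gene, short bars are means, and the dashed line is log2 5. All marrow points lie at or below 4.00, and each probe set is higher on the arrays labelled HDC-KO tumor than on the wild-type tumor arrays.

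Muc2 encodes the gel-forming mucin of the colon. It lay at 2.73 and 2.66 on the wild-type marrow arrays, 2.58 and 2.76 on the HDC-KO marrow arrays, 8.10 and 8.10 on the wild-type tumor arrays, and 11.38 and 11.58 on those labelled HDC-KO tumor. The marrow pools overlapped, and the tumor pools were apart from them and from each other. Muc2 was 10.4-fold higher in the latter tumor pool, a log2 change of 3.38 ± 0.09 (SE, with n = 2 arrays a pool, limma adjusted p = 1.2e-06). Fcgbp encodes a large mucus protein that is bound to MUC2. It lay at 2.85 and 2.93 in wild-type marrow, 2.95 and 2.90 in HDC-KO marrow, 3.83 and 3.68 in wild-type tumor, and 7.83 and 6.93 in the pool labelled HDC-KO tumor. It was the 1 tested gene of the 9 that stayed under background in the wild-type tumor pool, and its arrays in the other tumor pool lay further apart than those of the other 7 tested genes. The fold between the tumor pools was at least 5.22, with the wild-type mean of 3.75 raised to log2 5. Its limma adjusted p of 4.5e-05 is a description, since the gene was tested only because it was high in the pool labelled HDC-KO tumor.

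Zg16 encodes a lectin-like mucus protein that binds Gram-positive bacteria. Its brightest probe set lay at 2.76 and 2.99 in wild-type marrow, 2.92 and 2.99 in HDC-KO marrow, 10.49 and 10.67 in wild-type tumor, and 13.08 and 13.11 in the pool labelled HDC-KO tumor. All tumor arrays were above all marrow arrays, and the tumor pools did not overlap. Zg16 rose 5.73-fold between the tumor pools, and its other probe sets gave 5.79-fold and 7.04-fold. Tff3 encodes trefoil factor 3, a small peptide that goblet cells secrete with mucin and that aids repair of the epithelium. It lay at 2.71 and 2.66 in wild-type marrow, 3.34 and 3.15 in HDC-KO marrow, 7.61 and 7.33 in wild-type tumor, and 11.26 and 11.34 in the pool labelled HDC-KO tumor. The marrow pools of Tff3 did not overlap, with a log2 difference of 0.56 ± 0.11, but both were under background. The tumor difference was 3.83 ± 0.11 on the log2 scale, or 14.2-fold (limma adjusted p = 1.4e-06).

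Agr2 encodes a protein disulfide isomerase of the endoplasmic reticulum that is needed to make MUC2. Its brighter probe set lay at 2.47 and 2.65 in wild-type marrow, 2.23 and 3.14 in HDC-KO marrow, 6.09 and 6.00 in wild-type tumor, and 8.30 and 8.60 in the pool labelled HDC-KO tumor. The rise between the tumor pools was 5.31-fold, 2.41 ± 0.28 on the log2 scale, and was the smallest of the 8 tested genes. The other Agr2 probe set lay at 4.20 and 4.32 in wild-type tumor, under background, and at 6.56 and 6.18 in the other tumor pool, at least 2.58-fold higher. Spink4 encodes a Kazal-type peptide of goblet cells, a family named for inhibiting serine proteases. It lay at 3.21 and 2.71 in wild-type marrow, 3.29 and 3.25 in HDC-KO marrow, 6.09 and 5.42 in wild-type tumor, and 8.51 and 8.37 in the pool labelled HDC-KO tumor. All tumor arrays were above all marrow arrays, and the tumor pools did not overlap. Spink4 rose 6.43-fold between them (limma adjusted p = 0.00012).

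The antimicrobial lectins gave the widest contrast within the group. Reg3b encodes a secreted C-type lectin of epithelial cells, induced by interleukin 22 in the mouse gut. Its brighter probe set lay at 2.52 and 2.02 in wild-type marrow, 2.68 and 2.62 in HDC-KO marrow, 6.62 and 6.11 in wild-type tumor, and 10.74 and 10.94 in the pool labelled HDC-KO tumor. Reg3b rose 22.3-fold between the tumor pools, 4.48 ± 0.22 on the log2 scale, the largest difference of the 8 tested genes and number 32 of the 8174. The other Reg3b probe set lay at 3.21 and 3.31 in wild-type tumor, under background, and at 7.78 and 7.90 in the other tumor pool, at least 7.16-fold higher. Reg3g encodes the closely related lectin that kills Gram-positive bacteria. It lay at 2.15 and 2.13 in wild-type marrow, 2.09 and 2.14 in HDC-KO marrow, 2.45 and 2.44 in wild-type tumor, and 4.05 and 3.32 in the pool labelled HDC-KO tumor. The latter arrays were the highest, yet all 8 lay under background, so no fold is given. Without the filter on low values the Reg3g difference between the tumor pools was 1.24 on the log2 scale and passed (limma adjusted p = 0.0022). Reg3b and Reg3g belong to 1 gene family, and whether their probe sets read each other's RNA was not tested.

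Pigr encodes the receptor that carries polymeric immunoglobulin A across the epithelium. Its brighter probe set lay at 2.73 and 2.53 in wild-type marrow, 2.37 and 2.14 in HDC-KO marrow, 9.02 and 8.98 in wild-type tumor, and 12.01 and 11.93 in the pool labelled HDC-KO tumor. The arrays of each pool were close together, and the tumor pools did not overlap. Pigr rose 7.86-fold between the tumor pools at this probe set and 15.6-fold at the other, so the direction was shared and the size was not. Genes of its cargo were measured as well. Igha, the heavy chain of immunoglobulin A, had means of 13.11 in wild-type tumor and 14.04 in the other tumor pool. Its difference of 0.92 ± 0.18 on the log2 scale was under the 2-fold threshold, although another Igha probe set, at 1.32, passed. Jchain, which joins immunoglobulin A units into the form that PIGR binds, had a difference of 0.60 ± 0.08. In bone marrow, where Pigr was under background, Igha had a mean of 11.04 in wild-type cells and of 5.38 in HDC-KO cells, 50.3-fold lower (limma adjusted p = 1.3e-05). Jchain had means of 8.90 and 5.09, 14.1-fold lower (limma adjusted p = 2.2e-06).

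**Figure D2:**
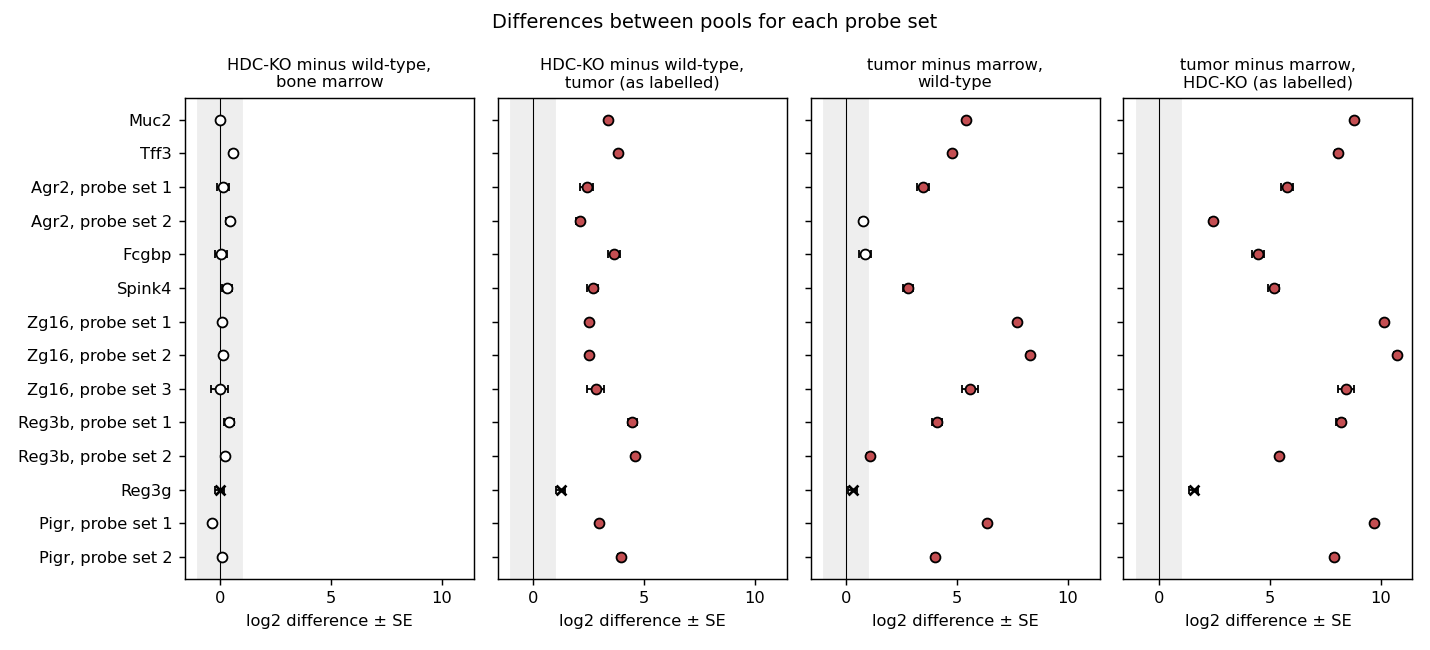
Log2 difference ± SE (horizontal axis) of each probe set of the 9 genes in 4 comparisons of pools. Filled points passed the test, open points did not, crosses mark Reg3g, which was not tested, and the grey band marks differences under 2-fold. In bone marrow no point is filled, and between the tumor pools each tested probe set is filled, from 2.10 at the weaker Agr2 probe set to 4.58 at the weaker Reg3b probe set.

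Against bone marrow, the tumor pools were compared within each genotype label. Each of the 8 genes was tested through tumor arrays alone, so the counts of this comparison are a description and not support for a difference between tissues. In wild-type cells 7 of the 8 tested genes passed as higher in tumor, against 11.6% of all genes tested, and Fcgbp did not, at a log2 difference of 0.86 ± 0.27 with both pools under background. With marrow means raised to log2 5, the folds were at least 47.8 for Zg16, 16.0 for Pigr, 8.55 for Muc2, 5.54 for Tff3, 2.57 for Reg3b, 2.06 for Agr2 and 1.69 for Spink4. Spink4 missed the threshold, at 0.76, when all values were raised to log2 5 before the fit, and the weaker Agr2 probe set did not pass, at 0.77. In cells labelled HDC-KO all 8 tested genes passed as higher in tumor, against 21.1% of all genes tested. The bounds there were at least 274-fold for Zg16, 126-fold for Pigr, 89.3-fold for Muc2, 78.8-fold for Tff3 and 57.3-fold for Reg3b, and lay between 5.22-fold and 10.9-fold for Fcgbp, Agr2 and Spink4. This comparison shares its tumor pool with the comparison of the tumor pools, so they are not independent.

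The genotype difference in tumor was also set against that in bone marrow in the same fit. The difference of differences passed for 8 of 8 tested genes, each higher in tumor, against 16.8% of all genes tested in that direction. These genes were tested through tumor arrays alone, and Fcgbp through the arrays labelled HDC-KO tumor alone. The count and the values are thus a description. The difference of differences ran from 2.29 ± 0.40 for Agr2 to 4.10 ± 0.31 for Reg3b on the log2 scale. Since the marrow differences were between values under background, it differed from the tumor difference by at most 0.56, at Tff3.

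Other genes of goblet cells were detected in part. Of 22 genes of the goblet lineage and of mucin assembly 9 were tested. Between the tumor pools 3 rose and none fell, with a median of 0.54 on the log2 scale, where 15.5% of all genes tested rose. Clca1, a secreted protease of mucus, lay at 7.12 and 7.37 in wild-type tumor and at 10.67 and 10.80 in the pool labelled HDC-KO, 11.2-fold higher. Gcnt3 and Galnt12, enzymes that build mucin sugars, were at least 14.8-fold and at least 6.78-fold higher, and both were under background in the wild-type tumor pool. They were tested only through the arrays labelled HDC-KO tumor, so their rise and the count of 3 are a description. When an array labelled HDC-KO tumor was left out, 1 of these 3 genes, Clca1, was still tested and called, because the others reached log2 5 only on those arrays. The other 6 tested genes, which include the chaperones Hspa5 and Pdia6 that every cell uses, had differences from -0.38 to 0.79. The transcription factors Atoh1 and Spdef, which specify secretory and goblet cells, had pool means of 2.32 to 2.74 and 2.35 to 2.61, under background in all 4 pools. Of the same list, Foxa1, not tested, had means of 3.98 in wild-type tumor and 5.19 in the pool labelled HDC-KO tumor. In the same order Foxa3 had 2.58 and 3.25 and Creb3l1 2.65 and 2.60, all under background.

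Among the other mucins and trefoil factors, the membrane mucins Muc3 and Muc13 were the 2 of 9 measured genes to be tested, and both rose between the tumor pools, 6.57-fold and 10.7-fold. Muc1, Muc4, Muc20, and the stomach trefoil factors Tff1 and Tff2 lay under background in every pool, with Muc4 in the pool labelled HDC-KO tumor at 3.54 as the highest mean of them in tumor. Of 8 tested antimicrobial genes 5 rose between the tumor pools, where 15.5% of all genes tested rose. The median was 2.04, or 1.47 with pool means raised to log2 5. Wfdc2, at least 1.37-fold higher, reached log2 5 on the arrays labelled HDC-KO tumor alone, so its rise is a description. Saa1, a serum amyloid A, rose 7.84-fold, Dmbt1, a secreted bacteria-binding scavenger protein, 5.21-fold, Itln1, a lectin of goblet cells, 4.90-fold, and Lypd8, which binds flagella, 4.84-fold. Pla2g2a, a secreted phospholipase with antibacterial activity, went the other way, at 9.32 in wild-type and 8.63 in the pool labelled HDC-KO tumor, and did not pass at -0.69 ± 0.10. Of the other genes of the Reg family, Reg1, Reg2, Reg3a and Reg3d had pool means of 2.11 to 2.69, under background in all pools. Reg4 had tumor means of 5.49 and 6.14, a difference of 0.66 ± 0.24 that did not pass.

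Genes upstream of Reg3 and Pigr rose in part. Of 10 tested inducers and receptors 3 rose between the tumor pools and none fell, with a median of 0.69, where 15.5% of all genes tested rose. Relb, a subunit of the transcription factor NF-kappa-B, rose 3.97-fold. Il22ra1, the epithelial receptor chain for interleukin 22, had pool means of 2.75 to 3.27, under background in all 4 pools.

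Markers of the gut epithelium moved with the 9 genes. Of 16 general epithelial genes, which were chosen with earlier results of these data known, 15 were tested. Between the tumor pools 14 of these rose, where 15.5% of all genes tested rose. The median was 2.55, or 2.13 with pool means raised to log2 5. Cdx2, Elf3 and Cldn4 reached log2 5 on the arrays labelled HDC-KO tumor alone. Their rise is thus a description, here and where the list is used below. Krt18, a keratin, did not pass at 0.94, but passed at 1.04 without array 1 labelled HDC-KO tumor and at 1.02 without wild-type tumor array 2. Epcam, an adhesion protein of epithelial cells, lay between 2.47 and 2.71 on the marrow arrays, at 9.65 and 9.64 in wild-type tumor, and at 11.70 and 11.75 in the pool labelled HDC-KO tumor. All 9 tested genes of absorptive colonocytes rose as well, with a median of 2.70. The smallest difference, 1.02 ± 0.16 for Slc26a3, lay close to the 2-fold threshold. Cyp2c55, a cytochrome P450, rose 16.0-fold and Fabp2, a fatty acid carrier, 11.9-fold. Ceacam20 and Slc37a2 reached log2 5 on the arrays labelled HDC-KO tumor alone, so their rise is a description. The summed linear signal of the epithelial genes was 228 to 277 in marrow, 5976 to 6038 in wild-type tumor, and 29700 to 31390 in the pool labelled HDC-KO tumor. That of the 9 goblet and lectin genes was 55.3 to 64.3, 2676 to 2761, and 20550 to 21220 in the same order. For the immunoglobulin A and plasma cell genes it was 8114 to 8140 in wild-type marrow, 5759 to 5799 in HDC-KO marrow, 22010 to 22700 in wild-type tumor, and 34280 to 35450 in the pool labelled HDC-KO tumor. The brightest gene of that list in marrow was Xbp1, with means of 12.41 in wild-type and 12.43 in HDC-KO cells. The part of RNA from epithelial or plasma cells in the results for the 9 genes was not tested.

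**Figure D3:**
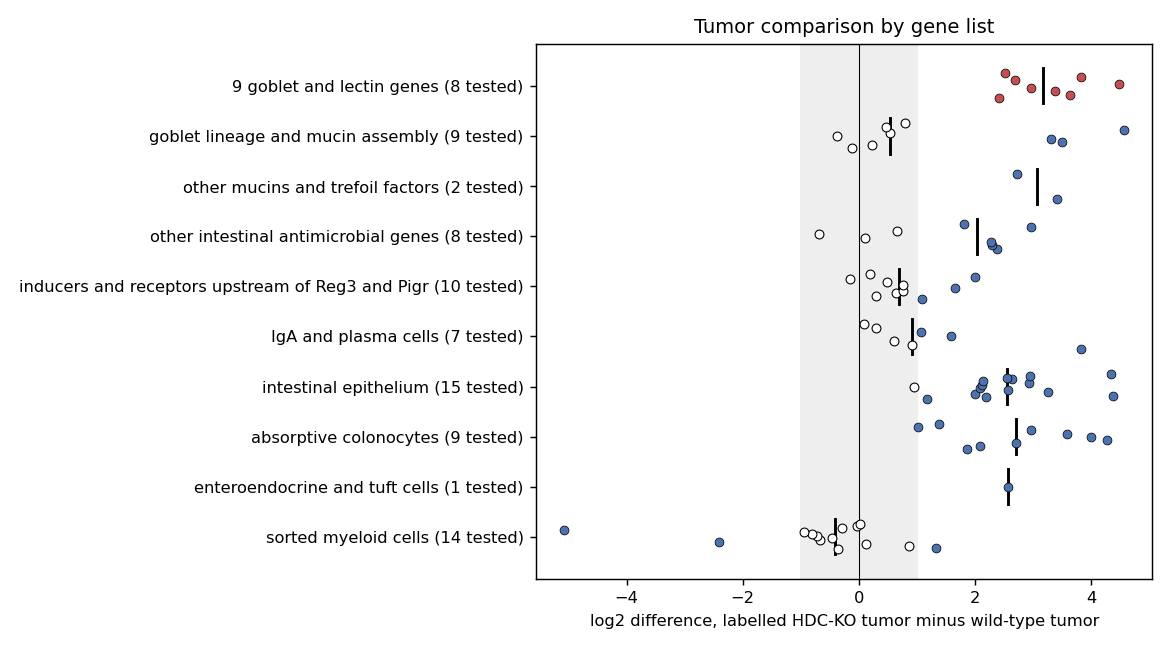
Log2 difference between the pool labelled HDC-KO tumor and the wild-type tumor pool (horizontal axis) for each tested gene of 10 lists (vertical axis). Filled points passed the test, open points did not, thick bars are list medians, and the grey band marks differences under 2-fold. The 9 goblet and lectin genes, with 8 tested, have a median of 3.18, general epithelial genes 2.55, absorptive colonocyte genes 2.70 and myeloid genes -0.42.

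Set beside the epithelial genes, the differences of 7 of the 8 tested genes lay within the range of the 15 general epithelial genes, 0.94 to 4.38. Reg3b, at 4.48, was above it. Zg16, Agr2 and Spink4 lay within 0.14 of the epithelial median on the log2 scale, Pigr 0.42 above it, Muc2 0.84, Fcgbp 1.08, Tff3 1.28 and Reg3b 1.93 above it. The mean log2 value of the 8 tested genes minus that of the 15 epithelial genes was -0.23 and -0.37 on the wild-type tumor arrays and 0.45 and 0.34 on the arrays labelled HDC-KO tumor. It was -0.32 and -0.47 on the wild-type marrow arrays and -0.16 and -0.13 on the HDC-KO marrow arrays, where all 8 genes were under background. Neither the tumor pools nor the marrow pools overlapped in this measure, and no test was made of it.

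Markers of the sorted myeloid cells were measured beside them. The summed linear signal of the 14 measured myeloid genes was 230600 to 234700 in marrow, 215600 to 221100 in wild-type tumor, and 181800 to 183800 in the pool labelled HDC-KO tumor. Their mean log2 value was 13.15 to 13.22 in marrow, 12.84 and 12.85 in wild-type tumor, and 12.17 and 12.15 in the pool labelled HDC-KO tumor, so it was lower there on both arrays. Between the tumor pools 1 of the 14 rose and 2 fell, where 15.5% of all genes tested rose and 10.5% fell. The 1 that rose was Ccr2, by 1.32 on the log2 scale. The 2 that fell were Mpo, the myeloperoxidase of granules, by 5.07, and Elane, by 2.41. Elane was under background in the pool labelled HDC-KO tumor, at a mean of 3.87, so its fall was at least 2.43-fold. Mpo lay at a mean of 5.43 there, close to background. All others of the list did not pass and ran from -0.94 for Mmp9 to 0.87 for Csf3r, with S100a8 at -0.04 and S100a9 at 0.01. The lower mean thus does not stand for each gene of the list.

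**Figure D4:**
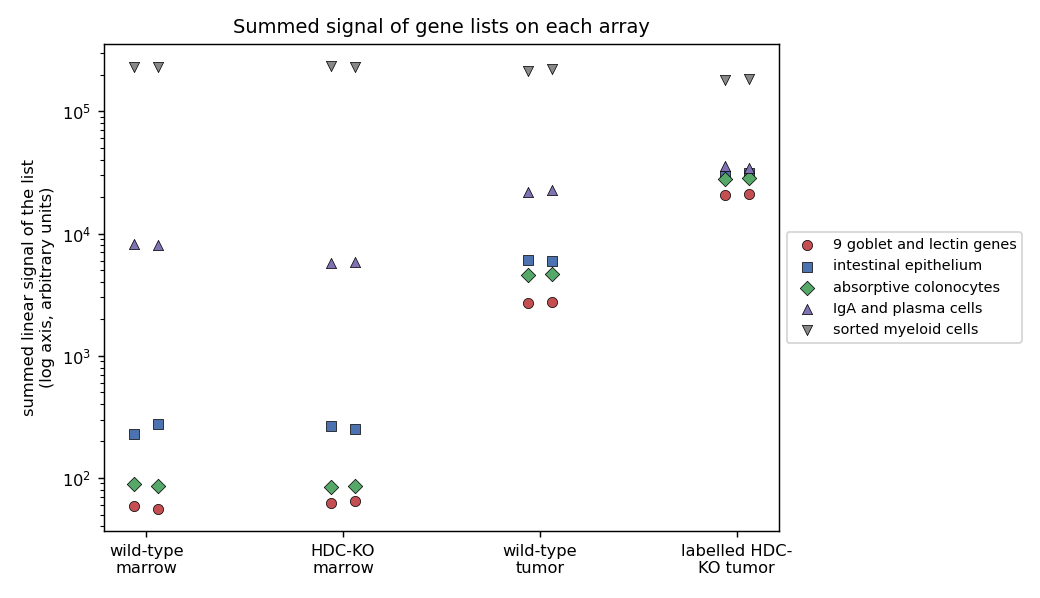
Summed linear signal (vertical log axis, arbitrary units) of 5 gene lists on the 2 arrays of each pool. The 9 goblet and lectin genes run from 55.3 to 64.3 in marrow to between 20550 and 21220 in the pool labelled HDC-KO tumor, beside epithelial and colonocyte genes, while myeloid genes lie between 181800 and 234700, lowest in the pool labelled HDC-KO tumor. The sum is carried by the brightest genes of a list.

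The tested genes outside the 9 whose pool profile was most like the mean of the 8 tested genes were Sult1d1, Maoa, Tmem51, Tspan8 and Slc6a14. Likeness was the Euclidean distance over the 4 pool means, raised to log2 5 and set relative to wild-type marrow, and was 0.07 for Sult1d1 and 0.24 for Slc6a14. The mean of the 8 genes lay 2.29 above marrow in wild-type tumor and 5.37 above it in the pool labelled HDC-KO tumor. Sult1d1, a sulfotransferase, lay 2.22 and 5.36 above it.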

How the data were processed

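The authors deposited log2 expression values of 45101 Affymetrix probe sets on 8 arrays, made with GCRMA per the submitters' processing notes, a method that subtracts a sequence-based background and normalizes arrays together. That the scale is log2 follows from their range. No GCRMA version is given there. The number of arrays limits the precision.

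By the platform annotation, 34958 probe sets had 1 gene symbol, 932 several and 9211 none. Per gene, the probe set with the highest mean was kept, and the 8174 genes that reached log2 5 on 2 arrays or more entered limma 3.58.1 in R 4.3.3, with all 8 arrays in 4 groups, no block and 5 contrasts. Other probe sets of the 9 genes were tested in a fit of every probe set. To pass, a gene needed a change of 2-fold or more and an adjusted p under 0.05 by Benjamini-Hochberg over all genes tested. Errors of differences are moderated standard errors. Where 1 pool mean was under log2 5, it was raised to 5 and the fold is a bound. On simulated data for the tumor comparison with 8174 genes, 98 of 100 genes changed by log2 2 were recovered. The simulated spread was that of technical arrays, and the changed genes had wild-type tumor means of log2 5 or above. The recovery thus covers neither the spread between mice nor genes under background.

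Same-numbered arrays were linked to no shared animal or day, and their deviations correlated across genes at -0.015 to 0.058 between groups. The 9 genes and all lists were chosen with earlier results of these data known. By rule, all 9 genes and Hdc are named, from each list up to 4 called genes per contrast with the largest differences after raising means to log2 5, some fixed markers, and the 5 genes of nearest profile. Genes named with values that did not pass or lay under background, and those outside this rule, were chosen after their values were seen. Python 3.11.15 made lists and figures.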

Additional observations from a re-analysis of the deposited data

Results flagged for a closer look

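The genotype difference in tumor minus that in bone marrow passed as higher, in limma with Benjamini-Hochberg adjustment, for 8 genes. Over all genes tested 16.8% passed in that direction. Each of the 8 was tested through tumor arrays alone, and Fcgbp through the arrays labelled HDC-KO tumor alone. The count and all 8 values are thus a description, since no genotype difference could be read in marrow. The differences of differences, on the log2 scale, were 3.40 ± 0.13 for Muc2, 3.27 ± 0.16 for Tff3, 2.29 ± 0.40 for Agr2 and 3.60 ± 0.38 for Fcgbp (SE, n = 2 technical arrays per pool). They were 2.38 ± 0.35 for Spink4, 2.44 ± 0.14 for Zg16, 4.10 ± 0.31 for Reg3b and 3.35 ± 0.14 for Pigr. Adjusted p ran from 6.7e-06 for Muc2 to 0.0029 for Agr2, and all marrow values were under background. The direction rests on a label, HDC-KO tumor, that the level of Hdc went against.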

How the results depend on the processing

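The count of the 9 genes that passed in each of the 5 comparisons stayed within 1.5 times its value under each alternative run: a filter at log2 7 or none, arrays centred on medians or quantile-normalized, raising values to log2 5, a mean over probe sets or each alone, a fit of the compared groups only, robust trended variances, the replicate block, untested pool means, and leaving out each array. With the replicate number as a block it was 8 in the tumor comparison, 0 in bone marrow, 7 in wild-type tumor against marrow, and 8 in the other comparisons, as without it. Leaving out 1 array gave 7 to 8 between the tumor pools, 7 to 7 in wild-type tumor against marrow, 7 to 8 in HDC-KO tumor against marrow, 7 to 8 for the difference of differences, and 0 to 0 in bone marrow. The gene lost was Fcgbp, which reached log2 5 on the arrays labelled HDC-KO tumor alone and was no longer tested without either. Without the filter, Reg3g passed too, for 9 genes between the tumor pools, and 6 of 22 goblet lineage genes passed in place of 3. Genes added in this way had not reached log2 5 on 2 arrays, so their passing is a description. The technical arrays give no measure of the spread between mice.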

Other observations

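Markers of enteroendocrine and tuft cells, the other secretory and sensory cells of the gut lining, were mostly under background. Of 9 measured genes 1 was tested, Chgb, which encodes the secretory granule protein chromogranin B. Chgb had a mean of 5.13 in wild-type tumor and was 5.90-fold higher, at 7.69, in the other tumor pool (limma adjusted p = 1.2e-05). The tuft cell genes Dclk1, Trpm5 and Pou2f3 had tumor means of 1.83 to 3.09.

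The immunoglobulin A and plasma cell list gave 3 genes that rose between the tumor pools of 7 tested, where 15.5% of all genes tested rose. The median was 0.92. Cd79b, a B cell receptor chain, rose 14.2-fold and Mzb1, a chaperone of antibody-secreting cells, 3.00-fold. In bone marrow, where Igha and Jchain were lower in HDC-KO cells, Cd79b was 2.57-fold higher in them (limma adjusted p = 0.00095).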
